A study of Mus musculus with 46 samples.

Results

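The voltage-gated sodium channels, voltage-gated calcium channels, HCN channels, TRP channels and the intracellular calcium release channels were followed across hunger states in the 2 arcuate neuron types that govern feeding, AgRP neurons and POMC neurons. Members were the genes of the RNA count table whose symbol begins with Scn, Cacn, Trpa, Trpc, Trpm or Trpv and a channel number, or is that of an HCN channel, an IP3 receptor (Itpr) or a ryanodine receptor (Ryr), which gave 74 of the 31854 rows of the table. Of these, 72 rows were channel subunits. The other two were Trpc4ap, which encodes a protein that associates with TRPC4, and Trpc5os, an RNA from the opposite strand of Trpc5. The rows Cacnb2 and Cacnb2.2 share 1 gene, of which the first is a short row near 0, and Scn2a1 is the older symbol of Scn2a.

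All mice were males on a C57BL/6J background, 6 to 11 weeks old, that carried the NuTRAP reporter, a Cre-dependent cassette that tags the ribosomal protein L10a with GFP and labels nuclei. Cre was expressed from the Agrp gene (AgRP-IRES-Cre, NuTRAP AgRP mice) or from the Pomc gene (POMC-IRES-Cre, NuTRAP Pomc mice), so cell type and mouse line cannot be told apart. Mice were fed ad libitum and given PBS (fed), deprived of food overnight for 18 to 20 h and given PBS (fasted), or fasted in the same way and given leptin at 5 mg/kg intraperitoneally (leptin), and tissue was taken 3 h after injection. Each library came from 4 pooled arcuate nuclei. Ribosome-bound RNA was purified by translating ribosome affinity purification (TRAP) from AgRP neurons in 3 fed, 4 fasted and 4 leptin libraries, and from POMC neurons in 2 libraries per state, with 25581041 to 54511107 counts per library. ATAC-seq, which reads open chromatin, was made from AgRP-positive and AgRP-negative sorted nuclei (2 libraries each, 8685497 to 11177208 counts in peaks) and from AgRP nuclei in the 3 states (2 libraries each, 8263234 to 17190963 counts in peaks). TRAP libraries are bulk samples, so a smaller share of a cell type and less RNA per cell cannot be told apart.

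Voltage-gated sodium channels carry the rising phase of the action potential, and their beta subunits set gating and surface density. Voltage-gated calcium channels are built around an alpha1 pore, with beta and alpha2delta subunits that carry it to the membrane, and several of the gamma proteins serve AMPA-type glutamate receptors instead. HCN channels open on hyperpolarisation and pass a depolarising current that paces firing. TRPC channels are cation channels downstream of phospholipase C, and in the arcuate nucleus leptin and insulin are known to act on POMC neurons through TRPC channels. IP3 and ryanodine receptors release calcium from the endoplasmic reticulum.

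The labelled cell types were checked against marker genes. Levels are in CPM, the reads of a gene relative to all reads counted in its library, with libraries scaled by the trimmed mean of M values. The summed level of 10 AgRP neuron markers was 1954 to 6888 CPM in AgRP libraries and 310.1 to 455.1 CPM in POMC libraries, and the sum of 7 POMC neuron markers was 141.3 to 197.4 CPM in AgRP and 1751 to 3186 CPM in POMC libraries. Some libraries stood apart from the rest of their state. In the AgRP libraries numbered 4 and the POMC libraries numbered 2, the glutamate transporter gene Slc1a2 took 1.93 to 2.42% of all counts. Elsewhere it took 0.24 to 0.641%. The astrocyte marker sum was 21080 to 28080 CPM in the former against 2877 to 6904 CPM. Slc1a2 is among the 8 genes of that sum and made up most of it in every library, so the sum and the Slc1a2 share are not separate measures. The sum therefore does not give the size of a difference in the other astrocyte genes. No astrocyte, oligodendrocyte, microglia or endothelial marker gene was at 0. Of the 58 members tested in both cell types, 17 (29.3%) were highest in exactly these libraries in every state of both cell types, against 17.2% of 13435 genes, and 2 (3.45%) were lowest there, against 15% of genes.

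Cacng7, which encodes a transmembrane AMPA receptor regulatory protein, was the member most raised in those libraries, at 200 CPM in the AgRP libraries numbered 4 against 50.2 CPM in the other AgRP libraries. Trpm3, a steroid- and heat-sensitive cation channel, stood at 248 CPM against 73.7 CPM. In POMC neurons the libraries numbered 2 held 202 CPM of Cacng7 against 57.3 CPM, and 301 CPM of Trpm3 against 117 CPM. Cacng4, Cacna1e and Cacnb4 were 2.1-fold, 1.63-fold and 1.61-fold higher in the AgRP libraries numbered 4. Trpc1 and Trpv2 were the pair at the other end, at 0.737 and 0.714 of the level in the other AgRP libraries. The part of these libraries in the levels of each gene was not tested.

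Levels per length placed Cacng7 and Scn2b near the top, and the pores Hcn2 and Scn2a1 above the alpha2delta and calcium beta subunits. CPM per kilobase of the deposited gene length was averaged over the 11 AgRP libraries, and the median of the 59 members with a mean above 1 CPM was 9.81, against 7.51 over the 13401 genes that passed the same filter. Scn2b, a sodium channel beta subunit, reached 58.2 ± 7.72 CPM per kb (SD, n = 11). Cacng7 had the highest mean, 97.0 ± 75.3 CPM per kb, with a range of 43.05 to 228.8 CPM per kb that took in the mean of Scn2b. Among the pores, Scn2a1 was the leading sodium channel at 39.7 ± 3.59 CPM per kb, followed by Scn9a at 17.9 and Scn3a at 17.5 CPM per kb.

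The calcium channel pore genes were led by Cacna1e, the R-type channel, at 33.6 ± 8.71 CPM per kb, and Cacna1b, the N-type channel, at 29.0 ± 1.64 CPM per kb, which overlapped. Among the T-type channels, which open near the resting potential, Cacna1h stood at 10.5, Cacna1i at 8.92 and Cacna1g at 6.27 CPM per kb. The leading alpha2delta, beta and gamma genes besides Cacng7 were Cacna2d2 at 34.5 ± 4.21, Cacnb3 at 33.2 ± 3.05 and Cacng4 at 34.1 ± 13.8 CPM per kb, and these were within 1 SD of one another. Cacna1s, the alpha1 pore of skeletal muscle, was low at 1.23 ± 0.442 CPM per kb.

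Hcn2 was the leading HCN gene at 41.3 ± 3.31 CPM per kb. Hcn3 stood at 12.4 ± 2.06 CPM per kb, and Hcn4 was lowest of the 4 HCN genes at 4.64 ± 0.787 CPM per kb. In the TRPC group, Trpc4 and Trpc1 were close at 12.5 ± 2.08 and 11.9 ± 2.24 CPM per kb, then came Trpc5 at 8.63, Trpc6 at 5.06 and Trpc7 at 2.30 CPM per kb. Trpv2 led the TRPV genes at 9.06 ± 1.83 CPM per kb, with Trpv6 and Trpv4 at 0.572 and 0.342 CPM per kb, and Trpm3 led the TRPM genes at 6.35 ± 4.37 CPM per kb. Itpr1 stood at 21.0 ± 1.32 CPM per kb, the highest of the release channels, and Ryr2 at 4.74 ± 0.52 CPM per kb was the highest ryanodine receptor. Of the 15 rows below the filter in AgRP neurons, Trpa1 was highest per length at 0.195 ± 0.0617 CPM per kb, Trpv5 was listed at 0 in 8 of 11 libraries, and Trpc5os in 10 of 11. The others were Cacng1, Trpm8, Trpv1, Trpm6, Trpv3, Cacng6, Cacnb2, Cacna1f, Trpm1, Scn4a, Scn10a and Trpm5.

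**Figure D1:**
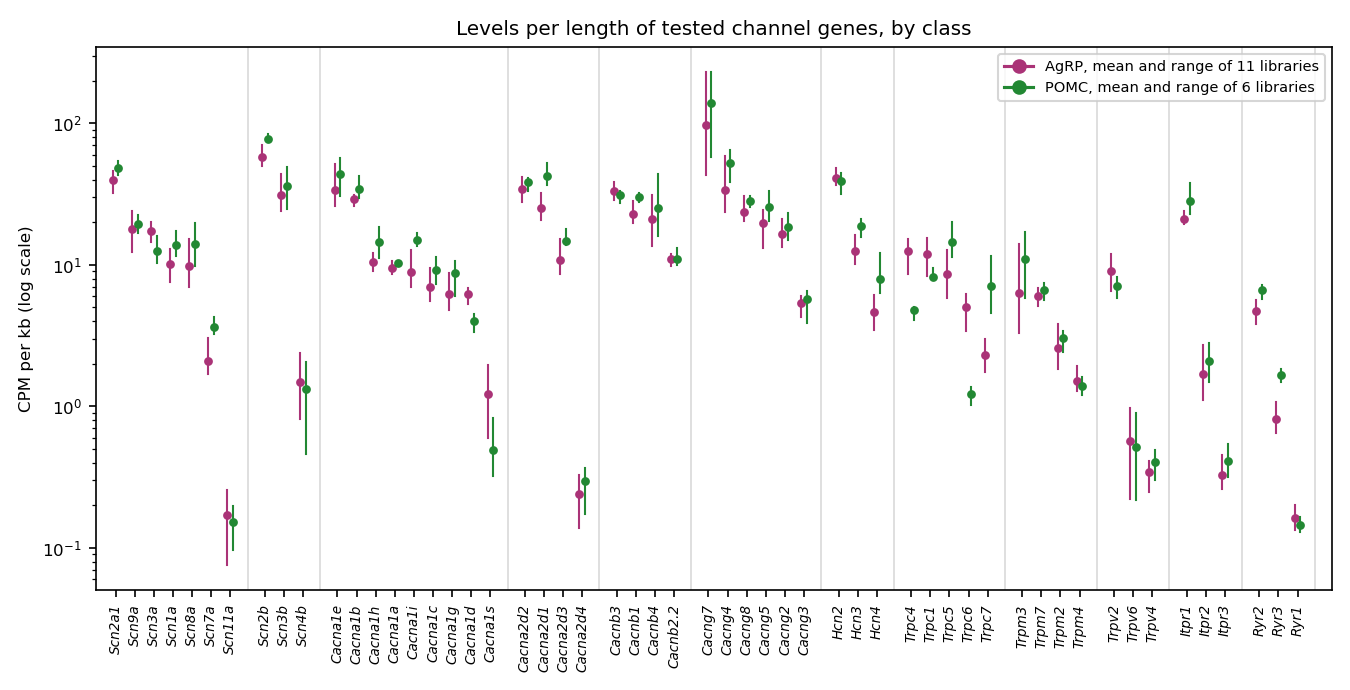
Level of channel genes that passed the filter, in CPM per kilobase on a log axis, grouped by class. Points are means and lines the range over 11 AgRP and 6 POMC libraries, with Cacng7 spanning 43.05 to 228.8 CPM per kb in AgRP neurons and Scn2b high in both cell types.

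Summed over a class, the HCN genes held 74.5 ± 6.35 CPM per kb in fed, 67.6 ± 4.72 in fasted and 72.1 ± 1.49 in leptin AgRP libraries (SD, n = 3, 4 and 4). The sodium channel pores summed to 108 ± 6.14 CPM per kb fed, 98.5 ± 4.59 fasted and 97.3 ± 7.97 leptin, and their beta subunits to 170 ± 12.3, 149 ± 14.8 and 150 ± 12.2 CPM per kb. The TRPV sum was 8.48 ± 0.46 fed, 9.94 ± 1.68 fasted and 11.6 ± 1.63 CPM per kb leptin. The ranges of 1 SD around these means overlapped between the states for the HCN, sodium pore and sodium beta sums, and did not between fed and leptin for the TRPV sum; the sums were not tested.

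Fasting against feeding in AgRP neurons, the comparison of hunger with satiety, gave 1 member called higher and 4 called lower of the 59 tested. A gene was called at a Benjamini-Hochberg adjusted p (FDR) under 0.05 over all 13401 genes in edgeR's quasi-likelihood test, with a log2 fold change beyond 0.5. The members' shares were 1.69% higher and 6.78% lower, and over all genes 2.81% were called higher and 1.08% lower. The gene that rose was Cacna1s, and those that fell were Trpm2, Cacng5, Cacna2d3 and Trpc7. Over the members the median log2 change was -0.11, with 41 of 59 below 0, against 0.02 over all genes (48 of 59 below 0, with medians of -0.16 and -0.04, when scaled by library size alone).

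Cacna1s (chr1:136052750-136119822, plus strand, mm10) was measured at 3.975, 4.308 and 3.751 CPM in the fed libraries, at 12.19, 6.797, 9.255 and 10.19 CPM in the fasted, and at 9.293, 7.894, 9.505 and 7.207 CPM in the leptin libraries. Every fasted and every leptin library lay above every fed library. The fasting change was 1.26 on the log2 scale (SE 0.183, FDR 0.00313), 1.17 without the libraries numbered 4 (FDR 0.0177), and it was called with each library left out in turn. Leptin-treated mice kept a level 1.08 above fed on the log2 scale (SE 0.182, FDR 0.00544), or 1.09 without the libraries numbered 4 (FDR 0.0192). In the GENCODE annotation the exons of Cacna1s overlap those of a gene model named Gm37759, and without strand the reads of such a pair cannot be told apart where both were counted.

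Trpm2, a cation channel opened by ADP-ribose and by warmth, fell by 0.76 on the log2 scale with fasting (SE 0.099, FDR 0.00206). Its levels were 35.83, 39.38 and 36.25 CPM in fed, 22.35, 25.45, 20.52 and 18.82 CPM in fasted, and 25.48, 24.16, 22.23 and 22.43 CPM in leptin libraries. Fed libraries did not overlap either of the other groups, and leptin against fed was -0.65 (SE 0.099, FDR 0.00338). Without the libraries numbered 4 these changes were -0.73 (FDR 0.0072) and -0.67 (FDR 0.00764). Summed microglia markers moved in the same direction, at 42.17, 24.34 and 43.26 CPM in the fed libraries 1, 3 and 4 against 19.79, 18.44, 20 and 40.80 CPM in the fasted. All 5 microglia markers tested were lower on fasting, with a median of -0.63 on the log2 scale and none called by edgeR (2 called lower with the replicate number as a block), and their part in the change of Trpm2 was not tested. Astrocyte, oligodendrocyte and endothelial marker genes had median changes of -0.18, -0.29 and -0.26, with 7 of 8, 9 of 10 and 8 of 10 of those tested lower.

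Cacng5, a transmembrane AMPA receptor regulatory protein, fell with fasting and rose after leptin. It was measured at 93.6, 91.76 and 88.47 CPM in fed, 60.03, 50.76, 52.66 and 64.34 CPM in fasted, and 92.41, 72.9, 80.06 and 82.99 CPM in leptin libraries. All fasted libraries lay below all fed and all leptin libraries. The fasting change was -0.67 on the log2 scale (SE 0.105, FDR 0.00481) and the leptin change 0.53 (SE 0.098, FDR 0.0175). The fasting call held in each of 7 leave-one-out fits and without all libraries numbered 4 (-0.78, FDR 0.0049), whereas the leptin call was lost in 4 of 8, with FDR 0.0507 without fasted library 1, 0.0558 without fasted library 2, 0.0632 without fasted library 3 and 0.0582 without leptin library 1.

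Cacna2d3, an alpha2delta subunit, fell and stayed low after leptin. Its levels were 50.71, 56.24 and 53.86 CPM in fed, 33.61, 39.66, 37.82 and 31.62 CPM in fasted, and 32.25, 40.21, 32.98 and 34.48 CPM in leptin libraries, with no overlap between fed and the rest. The changes from fed were -0.58 (SE 0.102, FDR 0.00855) in fasted and -0.61 (SE 0.102, FDR 0.00563) in leptin libraries, and -0.54 (FDR 0.0277) and -0.62 (FDR 0.014) without those numbered 4.

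Trpc7, a TRPC channel gated by diacylglycerol, was the least firm of the 5 calls. It was measured at 10.93, 10.36 and 10.97 CPM in fed, 7.663, 7.766, 6.558 and 6.413 CPM in fasted, and 9.293, 8.778, 6.737 and 7.566 CPM in leptin libraries. The groups fed and fasted did not overlap, and the change was -0.59 (SE 0.123, FDR 0.0191). The call held in 3 of 7 leave-one-out fits and was lost without fasted library 3 (FDR 0.068), fed library 1 (FDR 0.0739), fed library 3 (FDR 0.0539) or fed library 4 (FDR 0.0754). It was also lost without all libraries numbered 4 (FDR 0.0643) and with scaling by library size alone (FDR 0.122).

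Hcn3, an HCN channel, passed the adjusted p on fasting with a change below the fold threshold, -0.37 on the log2 scale (SE 0.064, FDR 0.00779). Its levels were 47.97, 53.12 and 50.11 CPM in fed, 39.67, 38.48, 39.33 and 37.68 CPM in fasted and 34.19, 36.59, 36.18 and 33.05 CPM in leptin libraries. The 3 groups did not overlap one another. Leptin against fasted was not called (-0.15, SE 0.06, FDR 0.42), and leptin against fed was called at -0.52 (SE 0.064, FDR 0.0013). That value was under the fold threshold without fed library 3 (-0.47) or leptin library 1 (-0.50), and was -0.52 (FDR 0.00525) without the libraries numbered 4. Exons of Hcn3 overlap those of Pklr, the liver pyruvate kinase gene.

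Counted by overlap alone, 1 member (1.69%) had all fasted above all fed libraries, against 9.80% of all genes, and 10 (16.9%) had all fasted below all fed, against 7.51%. The 10 were Trpm2, Cacng5, Trpc7, Cacna2d3, Scn9a, Cacna1i, Hcn3, Scn2b, Cacnb1 and Trpm7. Scn9a, a sodium channel of sensory and hypothalamic neurons, had a change of -0.39 (SE 0.166, FDR 0.23). By class, 4 of 4 sodium beta, 4 of 4 calcium beta, 6 of 6 gamma and 3 of 3 ryanodine receptor genes had values below 0, with medians of -0.21, -0.15, -0.16 and -0.13, where 6289 of all 13401 genes did, and only Cacng5 among them was called. Below 0 were also 6 of 9 calcium pores (median -0.02), 3 of 4 alpha2delta genes (-0.24), 6 of 8 sodium pores (-0.08), 3 of 4 HCN genes (-0.14) and 3 of 4 TRPM genes (-0.13). All genes of the first 4 classes lay below 0 under each scaling tried. The TRPC genes had 5 of 6 above 0, with a median of 0.04 and Trpc7 the one below, but with scaling by library size alone 2 of 6 lay above 0 and the median was -0.02. Of the IP3 receptor genes 2 of 3 lay above 0 (median 0.15), and of the TRPV genes 2 of 3 (0.01), but 1 of 3 with size factors of the DESeq2 type (-0.01) and with library size alone (-0.05).

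Libraries of the same number deviated together in AgRP neurons, and with the number as a block the same 5 members were called on fasting, where 4.41% of genes were called higher and 2.58% lower. With the block, several smaller changes passed the adjusted p and stayed below the fold threshold. Scn2b was at -0.37 (FDR 0.000815), the T-type pore Cacna1i at -0.39 (FDR 0.00382) and Trpc1 at 0.37 (FDR 0.00708).

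**Figure D2:**
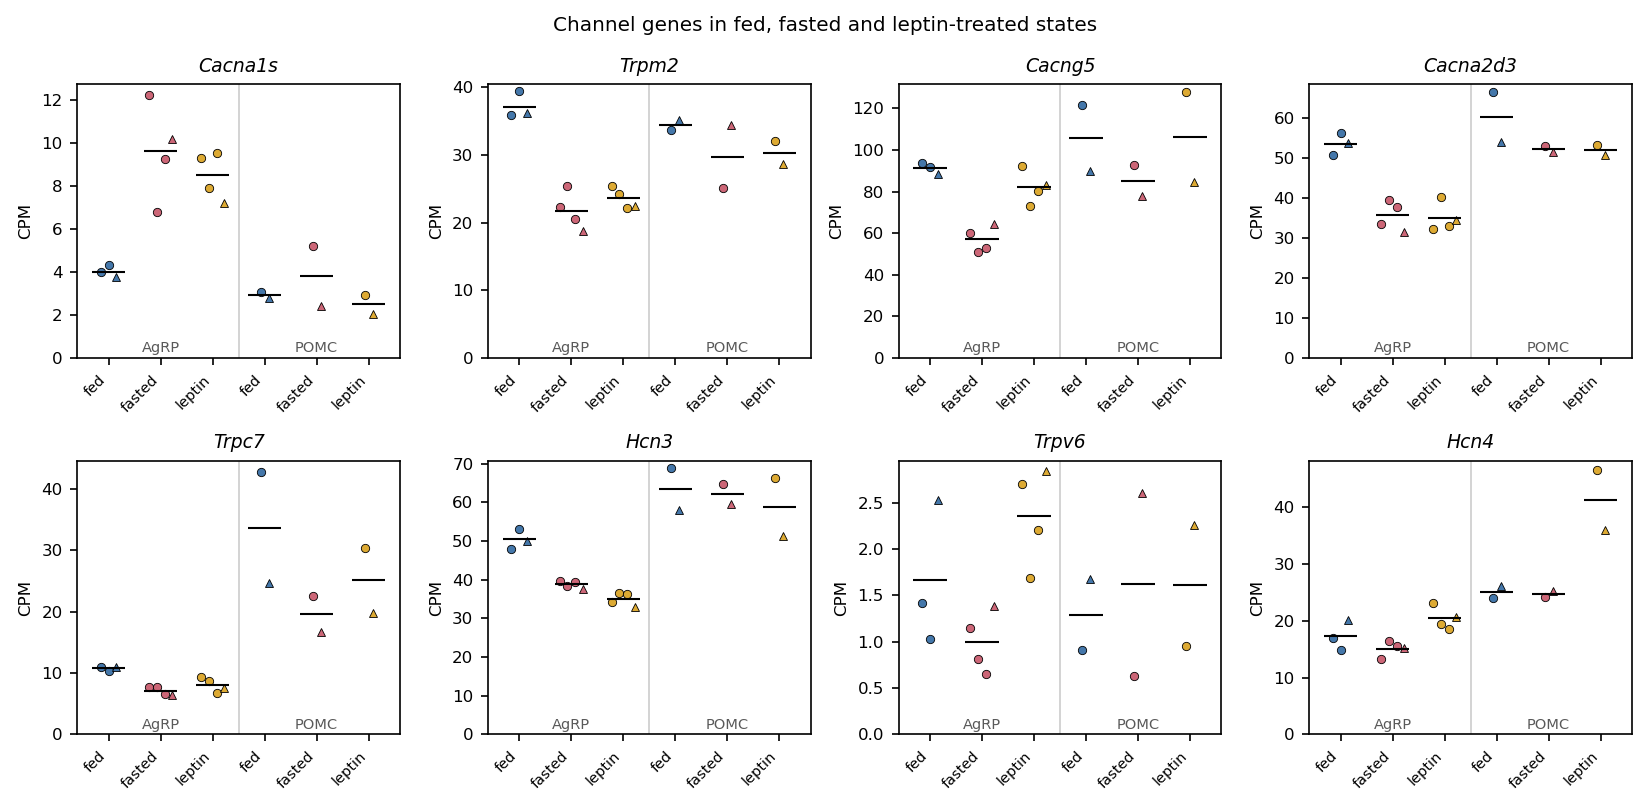
CPM in every library for Cacna1s, Trpm2, Cacng5, Cacna2d3, Trpc7, Hcn3, Trpv6 and Hcn4, by cell type and state. Bars are group means, and triangles mark the AgRP libraries numbered 4 and POMC libraries numbered 2; fed and fasted AgRP libraries do not overlap for Cacna1s, Trpm2, Cacng5, Cacna2d3, Trpc7 and Hcn3.

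Leptin against fasting in AgRP neurons, which asks what the hormone changes in fasted mice, called only Cacng5 among the 59 members, which is 1.69% against 1.19% of all genes called higher. None was called lower, against 0.604% of genes. The median over members was 0.005 and over all genes -0.014. The fed, fasted and leptin groups enter more than 1 of these comparisons, so the comparisons are not independent. With the replicate number as a block, 3 members were called higher, against 1.78% of genes, and none lower, against 1.07%. Among them were Cacng5 at 0.53 (FDR 0.000255) and Trpv6 at 1.27 (FDR 0.00104). Both were also called without the libraries numbered 4, at 0.58 (FDR 0.0117) and 1.34 (FDR 0.0268), again with 3 members called higher in all.

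Trpv6, a calcium-selective channel of absorptive epithelia, was near the filter in every library. It was measured at 1.423, 1.034 and 2.528 CPM in fed, 1.146, 0.8134, 0.6472 and 1.387 CPM in fasted, and 2.708, 1.686, 2.203 and 2.841 CPM in leptin libraries. Each leptin library lay above each fasted library, and the library numbered 4 was highest in every state. Without the block the change was 1.26 on the log2 scale (SE 0.323, FDR 0.0871), which did not pass in edgeR. DESeq2 without a block called it at 1.26 (FDR 0.00661). The paper lists Trpv6 among the ion channel genes induced by leptin, from edgeR at the same FDR and fold thresholds. It reports more genes changed by leptin in each direction than the 160 higher and 81 lower called here without the block. In fed libraries the range of Trpv6 spanned most of that of the other 2 groups.

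Hcn4, the HCN channel of the sinoatrial node, had all leptin libraries (23.08, 19.41, 18.55 and 20.57 CPM) above all fasted libraries (13.18, 16.44, 15.51 and 15.11 CPM), with a change of 0.43 (SE 0.118, FDR 0.112). In fed libraries it stood at 16.87, 14.79 and 20.14 CPM. Hcn2, the leading HCN gene, ranged from 117.2 to 153.7 CPM over all AgRP libraries and had a leptin change of -0.01 (SE 0.095).

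By overlap alone, Trpv6, Cacng5 and Hcn4 had all leptin above all fasted libraries, and Hcn3 all below, where 2.93% and 2.67% of all genes did.

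Leptin against fed gave 1 member called higher, Cacna1s, and 3 called lower, Hcn3, Trpm2 and Cacna2d3, where 3.70% of all genes were called higher and 1.70% lower. With the block, 4 were called higher, against 5.28% of genes, among them Trpv6 at 0.71 (FDR 0.0213) and Scn11a at 0.82 (FDR 0.0248), and the 3 lower were called again, against 3.22%. Scn11a, a sodium channel of nociceptors, lay between 0.4431 and 1.508 CPM in AgRP libraries, and its fed and leptin libraries overlapped.

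In POMC neurons neither state comparison called a member, and none of the 13412 genes tested was called by edgeR without a block in either, which had 2 libraries per state. With the replicate number as a block edgeR called 3 genes lower on fasting, and 7 higher and 1 lower after leptin, none of them a member. At an unadjusted p under 0.05, 273 genes (2.04%) passed for fasting and 151 (1.13%) for leptin, with 0 and 1 members. DESeq2 called 3 genes lower on fasting, and 9 higher and 1 lower after leptin, none of them a member. The 1 member (1.72% of 58) was Hcn4, at 24.03 and 26.02 CPM fed, 24.15 and 25.22 CPM fasted and 46.38 and 35.99 CPM after leptin. Its change of 0.73 on the log2 scale (SE 0.163) did not pass the adjusted p. Both leptin libraries of Hcn4 lay above the other 4. Cacna1s was at 3.055 and 2.796 CPM fed, 5.206 and 2.392 CPM fasted and 2.931 and 2.034 CPM after leptin. Trpv6 lay between 0.6363 and 2.609 CPM, with the library numbered 2 above the other in each state.

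Whether fasting acted differently in AgRP and POMC neurons was tested as an interaction. No member was called, against 0.134% of genes higher and 0.0223% lower. With the replicate number within each cell type as a block, Cacna1s was called at 1.00 (SE 0.284, FDR 0.0381), against 4.36% of genes called higher, and Trpm2 at -0.60 (SE 0.162, FDR 0.0288), against 1.87% called lower. Without the block these were 0.87 (SE 0.401, FDR 0.553) and -0.56 (SE 0.194, FDR 0.355). Trpm2 in POMC neurons was measured at 33.65 and 35.09 CPM fed, 25.13 and 34.36 CPM fasted and 32.07 and 28.63 CPM after leptin. The interaction for leptin called no member with or without the block, where 0.0447% and 0.0298% of genes were called higher and lower without it.

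Between the cell types, with the 3 states averaged, 5 members were called higher in AgRP than in POMC neurons and 9 lower, of 58 tested, against 6.51% and 6.41% of all genes. The median over members was -0.24 on the log2 scale, with 42 of 58 below 0, and over all genes -0.02. Markers of other cells also had mostly negative values in this fit, with 6 of 8 astrocyte markers below 0 (median -0.33, 1 called), 9 of 10 oligodendrocyte markers (-0.22, 2 called), 8 of 10 endothelial and mural markers (-0.15, 2 called) and 7 of 9 markers of other arcuate neurons (-0.60, 5 called). Their part in the members' median was not tested. Higher in AgRP neurons were Trpc6, Trpc4, Cacna1s, Cacna1d and Trpc1, and among those lower were Trpc7, Ryr3, Scn7a, Hcn4, Trpc5, Cacna1i, Cacna2d1 and Hcn3.

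The TRPC genes divided by cell type. Trpc6 ranged from 17.37 through a median of 25.24 to 31.65 CPM in 11 AgRP libraries and from 5.166 through 6.33 to 6.978 CPM in 6 POMC libraries, a difference of 2.05 (SE 0.142, FDR 1.66e-07). Trpc4 ranged from 59.57 through 87.8 to 104.3 CPM in AgRP and from 27.98 through 33.4 to 34.73 CPM in POMC libraries, a difference of 1.39 (SE 0.102, FDR 2.7e-07). Neither gene had overlapping groups. Trpc7 went the other way without overlap, from 6.413 through 7.766 to 10.97 CPM in AgRP and from 16.67 through 23.65 to 42.73 CPM in POMC libraries, a difference of -1.58 (SE 0.126, FDR 5.59e-07). Trpc5, known for its part in leptin's action on POMC neurons, was lower in AgRP by 0.75 (SE 0.186, FDR 0.00689), with overlap between 54.79 to 119.1 CPM in AgRP and 106 to 186.9 CPM in POMC libraries. Trpc1 was called at 0.51 (SE 0.11, FDR 0.00305), just past the fold threshold. It fell below it in 7 of 17 leave-one-out fits, to 0.47 without AgRP fasted library 1, 0.49 without fed 1, 0.47 without fed 3, 0.46 without leptin 1, 0.50 without POMC fasted 2, 0.49 without fed 2 and 0.47 without leptin 2.

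Among the calcium channels, Cacna1d, an L-type pore that opens at low voltage and supports pacemaking, ranged from 62.79 through 73.19 to 80.74 CPM in AgRP and from 39.74 through 47.4 to 52.93 CPM in POMC libraries, with no overlap and a difference of 0.63 (SE 0.062, FDR 5e-06). Its exons overlap those of Chdh, the choline dehydrogenase gene. Cacna1s differed by 1.19 (SE 0.168, FDR 0.000129), from a median of 7.894 CPM in AgRP to 2.86 CPM in POMC libraries, with the fed AgRP libraries within the POMC range of 2.034 to 5.206 CPM. The T-type pore Cacna1i was lower in AgRP neurons, at 68.14 through 85.21 to 125.3 CPM against 134.1 through 147.3 to 164.5 CPM (-0.74, SE 0.102, FDR 9.14e-05). Cacna2d1, the alpha2delta subunit that binds gabapentin, was at 266 through 300.4 to 412.2 CPM against 469.4 through 522.6 to 664.4 CPM (-0.74, SE 0.122, FDR 0.00041), again without overlap.

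Scn7a, which encodes a sodium-sensing channel, was at 13.64 through 15.95 to 24.3 CPM against 25.99 through 28.44 to 34.53 CPM (-0.79, SE 0.107, FDR 8.6e-05), and the groups did not overlap. Hcn4 ranged from 13.18 through 16.87 to 23.08 CPM in AgRP and from 24.03 through 25.62 to 46.38 CPM in POMC libraries (-0.75, SE 0.081, FDR 1.01e-05). Hcn3 differed by -0.59 (SE 0.06, FDR 6.26e-06), with some overlap, at 33.05 to 53.12 CPM against 51.36 to 68.87 CPM. Ryr3, a ryanodine receptor whose exons overlap those of Aven, was at 10.81 through 12.63 to 18.06 CPM in AgRP and 24.86 through 27.46 to 31.13 CPM in POMC libraries (-1.02, SE 0.119, FDR 2.31e-05). Ryr2 and Scn3a were just under the fold threshold, at -0.49 (FDR 0.000525) and 0.47 (FDR 0.000711).

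The groups did not overlap for 3 members higher in AgRP (Cacna1d, Trpc4 and Trpc6) and for 9 lower (among them Trpc7, Ryr3, Scn7a, Hcn4, Cacna2d1, Cacna1i, Ryr2 and Scn2b), where 3.15% and 3.86% of all genes did not. Other than Trpc1, each of the 14 called members was called in 17 of 17 leave-one-out fits. With libraries of 1 number summed over states, 4 were called higher and 7 lower, against 3.57% and 2.71% of genes. Trpc1, Trpc5 and Cacna2d1 were no longer called in that fit. Its FDR values were larger, at 0.00291 for Trpc6, 0.00368 for Trpc4 and 0.00372 for Trpc7. The fit without summing counts same-numbered libraries as independent. With fed libraries alone, Trpc6 at 1.90, Trpc4 at 1.59 and Cacna1d at 0.68 were called higher and Trpc7 at -1.65 lower, against 1.09% of genes each way. Without the libraries that stood apart, 8 were called higher and 14 lower, against 7.78% and 8.23% of genes, with Scn3a and Scn4b among those added to the higher and Cacna1h, Cacng4, Cacng5, Itpr1 and Trpm3 to the lower.

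**Figure D3:**
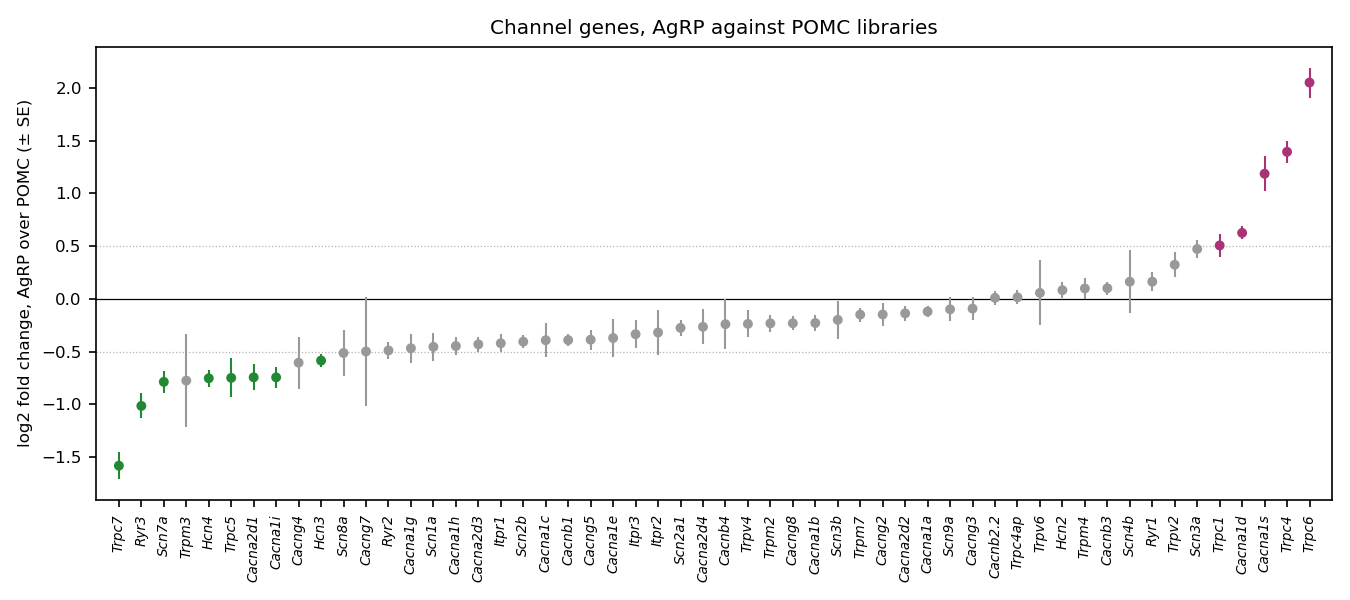
Log2 fold change with its standard error between AgRP and POMC neurons for tested members, in order of size, with the fold threshold of 0.5 dotted. Coloured points were called; Trpc6 at 2.05 and Trpc4 at 1.39 lead on the AgRP side, and Trpc7 at -1.58 and Ryr3 at -1.02 on the POMC side.

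Channel partner genes were taken from a list of 65 symbols, which matched 69 rows, of which 63 were tested in AgRP neurons. The list mixes genes for proteins that act on these channels with other cation channels, calcium exchangers, calcium pumps and calcium buffers. On fasting 3 were called higher and 0 lower, against 2.81% and 1.08% of all genes. After leptin 0 were higher and 3 lower than in fasting, against 1.19% and 0.604%, and 1 was higher in leptin than in fed libraries, against 3.70%. The 3 were Gem, Rrad and Rem2, which are RGK small GTPases that bind calcium channel beta subunits and limit high-voltage calcium currents. Rem1, a further RGK gene on the list, was not called. The medians over the list were -0.05 and -0.02 in those first comparisons.

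Gem was measured at 8.971, 5.489 and 7.787 CPM in fed, 26.91, 27.69, 19.85 and 30.61 CPM in fasted and 15.63, 14.27, 17.3 and 12.92 CPM in leptin libraries of AgRP neurons. The 3 groups did not overlap, with a fasting change of 1.84 (SE 0.197, FDR 0.00107) and a leptin change of -0.81 (FDR 0.0337). Leptin libraries remained above fed by 1.03 (FDR 0.00915). Rrad stood at 48.85, 37.73 and 49.41 CPM in fed, 77.83, 100.9, 71.26 and 84.69 CPM in fasted and 47.94, 53.24, 60.89 and 39.44 CPM in leptin libraries, with changes of 0.90 (SE 0.165, FDR 0.0107) and -0.74 (FDR 0.0282). Rem2 stood at 6.822, 5.932 and 5.015 CPM in fed, 9.322, 10.13, 11.8 and 7.592 CPM in fasted and 6.155, 5.962, 6.082 and 4.695 CPM in leptin libraries, with changes of 0.72 (SE 0.158, FDR 0.0243) and -0.76 (FDR 0.0181). For both, the fasted libraries lay above all fed and all leptin libraries.

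In POMC libraries Gem lay between 2.863 and 7.604 CPM, Rrad between 9.821 and 21.97 CPM and Rem2 between 3.089 and 6.154 CPM. With the states averaged, they were higher in AgRP neurons by 1.43, 1.79 and 0.75, each called. Fed AgRP libraries alone overlapped the POMC range for Gem (5.489 to 8.971 CPM) and Rem2 (5.015 to 6.822 CPM). For Rrad they lay above it, with a lowest value of 37.73 CPM. The fasting effect differed between the cell types with the block (Gem 1.90, FDR 0.00128, Rrad 1.09, FDR 0.0175, Rem2 0.75, FDR 0.048) and not without it (FDR 0.171, 0.351 and 0.454). Lower in AgRP neurons were Calb1, the calcium buffer calbindin, at -1.93, the kinase gene Camk2a at -0.66 and the junctophilin gene Jph4 at -0.51.

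**Figure D4:**
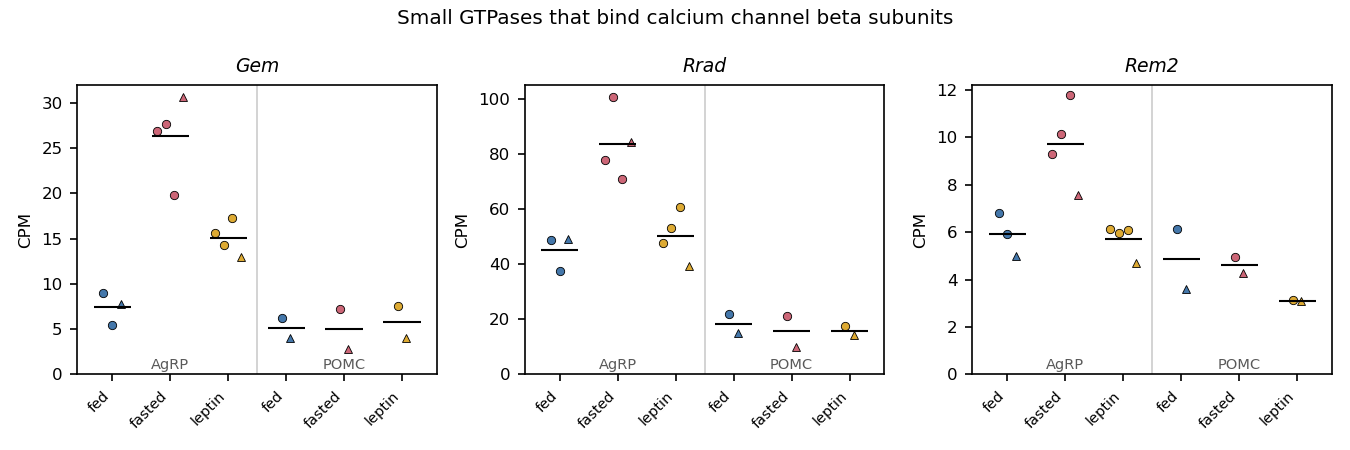
CPM in every library for Gem, Rrad and Rem2 by cell type and state, with bars at group means. In AgRP neurons fasted libraries lie above fed and leptin libraries for all 3 genes, as for Gem at 19.85 to 30.61 CPM fasted. POMC libraries lie at 2.863 to 7.604 CPM for Gem and 3.089 to 6.154 CPM for Rem2, and both ranges overlap the fed AgRP libraries.

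Open chromatin at the channel genes was read from the ATAC peaks that overlap a member's span or lie within 1 kb of one of its start sites. Start sites are those of every transcript in the GENCODE annotation, so a start-site peak can lie inside a gene, far from its 5′ end. Of 463 such peaks tested in sorted nuclei, 126 (27.2%) were called higher in AgRP-positive nuclei and 70 (15.1%) lower, against 24.1% and 15.3% of all 66560 peaks. Both populations were sorted from shared pools, and this fit did not pair them. At start sites, 9 of 87 member peaks were higher and 11 lower, where 6.71% and 14.4% of all start-site peaks were called. Start sites held 72.59 and 72.88% of the counts in AgRP-negative and 65.25 and 64.77% in AgRP-positive libraries, and the part of this in the values was not tested. Scaled by library size alone, the median over all peaks moved from 0 to 0.16 and that over member peaks from 0.21 to 0.37 on the log2 scale, and that over member peaks at start sites from -0.12 to 0.05.

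The sequences shown here are the 300 bases at the centre of the member peak with the lowest FDR in each direction, for sorted nuclei and for fasting. All 4 lie within introns and are given 5′ to 3′ on the plus strand of mm10 (GRCm38). Capitals mark matches on either strand to TTCNNNGAA (a STAT motif), TGANTCA (AP-1), TGTTTAC (FOXO), TGACGTCA (CRE) or GAAA and GAAA set apart by any 2 bases (an interferon response element), which do not overlap here. The window at chr3:54211414-54211713 belongs to Trpc4 and that at chr5:16184149-16184448 to Cacna2d1. That at chr8:84595872-84596171 belongs to Cacna1a, the P/Q-type pore, and that at chr6:108426799-108427098 to Itpr1.
Trpc4 peak, higher in AgRP-positive nuclei: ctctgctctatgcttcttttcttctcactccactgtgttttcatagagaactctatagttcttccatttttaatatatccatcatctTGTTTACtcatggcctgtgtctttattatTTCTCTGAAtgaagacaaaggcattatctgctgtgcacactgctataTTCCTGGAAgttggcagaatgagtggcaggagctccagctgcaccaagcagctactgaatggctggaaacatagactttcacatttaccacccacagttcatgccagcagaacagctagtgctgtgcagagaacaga
Cacna2d1 peak, lower in AgRP-positive nuclei: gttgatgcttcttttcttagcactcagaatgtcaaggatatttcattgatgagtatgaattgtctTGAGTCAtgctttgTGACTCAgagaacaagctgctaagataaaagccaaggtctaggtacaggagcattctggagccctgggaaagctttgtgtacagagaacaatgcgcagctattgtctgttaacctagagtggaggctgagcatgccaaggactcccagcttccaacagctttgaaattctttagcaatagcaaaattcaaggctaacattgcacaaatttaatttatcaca
Cacna1a peak, higher in fasted: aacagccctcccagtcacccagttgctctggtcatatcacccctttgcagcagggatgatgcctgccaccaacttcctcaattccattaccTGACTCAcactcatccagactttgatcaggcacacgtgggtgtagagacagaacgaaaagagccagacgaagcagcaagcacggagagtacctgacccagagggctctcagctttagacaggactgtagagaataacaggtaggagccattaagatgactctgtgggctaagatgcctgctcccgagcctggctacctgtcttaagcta
Itpr1 peak, lower in fasted: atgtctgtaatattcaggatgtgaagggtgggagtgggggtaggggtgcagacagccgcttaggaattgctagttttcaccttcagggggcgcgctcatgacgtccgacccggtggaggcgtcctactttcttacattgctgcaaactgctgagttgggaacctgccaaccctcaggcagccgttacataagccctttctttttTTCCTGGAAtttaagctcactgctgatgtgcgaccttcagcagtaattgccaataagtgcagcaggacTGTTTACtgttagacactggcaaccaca

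The Trpc4 window holds a FOXO match from base 88 and STAT matches from bases 117 and 164, and the Cacna2d1 window AP-1 matches from bases 66 and 80. The Cacna1a window holds an AP-1 match from base 92, and the Itpr1 window a STAT match from base 205 and a FOXO match from base 273. Of all peaks of at least 300 bases, the central 300 bases held a STAT match in 10.8%, an AP-1 match in 16% and a FOXO match in 3.91% of the 47900 of sorted nuclei, and in 12.7%, 29.2% and 4.49% of the 80530 of the states. CRE and interferon response element matches were in 1.17% and 3.98% of the former and in 0.831% and 4.2% of the latter. A match is a match of letters only.

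The Trpc4 peak, at chr3:54211268-54211860, had 35.71 and 43.39 CPM in AgRP-positive and 2.215 and 3.078 CPM in AgRP-negative libraries, a difference of 3.89 on the log2 scale (SE 0.227, FDR 1.39e-59). It lies inside the gene, well away from the start site. Trpc4 had 5 of 8 peaks called higher and none lower, among them chr3:54258361-54259440 at 2.82 and chr3:54274565-54275250 at 2.60, whereas its start-site peak at 0.47 (FDR 0.0045) was below the fold threshold. Trpc6 had 3 of 5 peaks called higher. Its start-site peak at chr9:8543960-8545101 had 31.0 and 25.32 CPM against 13.05 and 11.36 CPM, a difference of 1.21 (SE 0.187, FDR 2.39e-09), and the peak at chr9:8603776-8604831 differed by 2.81 (FDR 4.6e-26).

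Trpc7, lower in AgRP than in POMC RNA, had a start-site peak at chr13:56894589-56894922 with 0.8882 and 0.9994 CPM in AgRP-positive and 2.831 and 3.788 CPM in AgRP-negative nuclei (-1.80, FDR 0.00853). A second peak of Trpc7, at chr13:56782785-56782988, was lower by 1.75 (FDR 0.000105), and another, at chr13:56859128-56859778, was higher, at 12.61 and 8.495 CPM against 1.108 and 3.315 CPM (2.24, FDR 1.59e-09). AgRP-negative nuclei are the rest of the arcuate nucleus and not POMC neurons, so these values and the RNA difference have different reference cells.

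Among the other members, the start-site peak called higher with the lowest FDR was that of Cacna1b, chr2:24685017-24685811. It had 29.49 and 38.23 CPM against 5.907 and 7.221 CPM (2.36, FDR 4.73e-29). This start site is internal, as the gene spans chr2:24603887-24763152 on the minus strand. Start-site peaks of Cacna2d1 at 0.87, Ryr3 at 1.48, Scn11a at 1.87, Trpm1 at 2.84, Cacng5 at 0.84 and Cacnb2.2 at 0.69 were also called higher. Those of Cacna1e at -1.49, Cacna1g at -0.74, Cacna2d3 at -0.59, Cacng3 at -0.90, Scn2a1 at -0.56, Scn1a at -1.06 and -1.13 and Trpm3 at -1.24 and -2.05 were called lower, and Trpm4 had 1 each way. Trpm3, whose RNA was raised in the libraries with the high Slc1a2 share, had 3 of 25 peaks higher and 11 lower in AgRP-positive nuclei, with a median of -0.77. Scn3a had 7 of 12 higher and none lower, Cacna1d 6 higher and 1 lower of 18, and Cacna1s 3 higher and none lower of 5. The Cacna2d1 peak at chr5:16184021-16184578 had 4.885 and 4.914 CPM against 24.98 and 17.16 CPM (-2.10, SE 0.243, FDR 4.26e-16).

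Promoters of 53 member symbols were found in the RefSeq table for GRCm38.p6, as 67 windows from 250 bases before to 50 after a start. STAT matches were in 7 of the 67 (10.4%) against 8.3% of all 32851 windows, AP-1 matches in 2 (2.99%) against 7.81%, and FOXO, CRE and interferon response element matches in none, against 3.65%, 1.79% and 3.44%. STAT matches were in windows of Cacna1c, Cacna1i, Scn2b, Scn9a, Trpm3, Trpm8 and Trpv6, and AP-1 matches in those of Cacng5 and Trpv3. The windows printed here are those of Trpc6 (chr9:8543892-8544191, plus strand), whose start-site peak was called, Cacng5 (chr11:107915006-107915305, minus strand), whose RNA fell with fasting and rose after leptin, and Trpv6 (chr6:41636356-41636655, minus strand), which rose after leptin with the block. Each is written 5′ to 3′ on the strand of its gene.
Trpc6 promoter: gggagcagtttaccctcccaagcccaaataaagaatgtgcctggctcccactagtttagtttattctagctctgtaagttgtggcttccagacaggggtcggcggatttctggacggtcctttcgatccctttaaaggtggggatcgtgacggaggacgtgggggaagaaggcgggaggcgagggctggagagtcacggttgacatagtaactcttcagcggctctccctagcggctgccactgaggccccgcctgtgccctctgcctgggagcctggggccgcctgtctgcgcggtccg
Cacng5 promoter: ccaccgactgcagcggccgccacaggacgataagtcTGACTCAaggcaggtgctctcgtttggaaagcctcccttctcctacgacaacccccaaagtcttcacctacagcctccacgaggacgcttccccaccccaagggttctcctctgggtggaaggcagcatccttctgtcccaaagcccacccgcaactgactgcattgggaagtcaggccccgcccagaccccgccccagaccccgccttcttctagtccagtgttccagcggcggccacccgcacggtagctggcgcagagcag
Trpv6 promoter: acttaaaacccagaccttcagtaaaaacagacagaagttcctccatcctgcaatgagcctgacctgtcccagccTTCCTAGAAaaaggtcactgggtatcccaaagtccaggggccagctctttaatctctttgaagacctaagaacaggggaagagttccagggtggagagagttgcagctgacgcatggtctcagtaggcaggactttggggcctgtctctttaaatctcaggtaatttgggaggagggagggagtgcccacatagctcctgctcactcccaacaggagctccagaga

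The Cacng5 window has an AP-1 match from base 37 and the Trpv6 window a STAT match from base 75, in capitals, while Trpc6 has none of the 5 motifs. A peak lies over the Trpc6 and Cacng5 windows in both ATAC tables, and none over that of Trpv6.

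On fasting, 148 of 779 member peaks tested in AgRP nuclei (19.0%) were called higher and 75 (9.63%) lower, against 19.0% and 8.36% of all 102237 peaks. At start sites 5 of 113 were higher and 6 lower, against 6.73% and 4.34%. Counts at start sites made up 55.21 and 58.48% of fed, 50.45 and 51.95% of fasted and 49.71 and 50.7% of leptin libraries, and the part of this was not tested. The member shares were thus close to the background in each direction, and a called peak is a value of its gene.

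The intronic Cacna1a peak at chr8:84595779-84596265 was at 24.47 and 26.39 CPM in fasted and 2.979 and 5.335 CPM in fed nuclei (2.57, SE 0.292, FDR 2.25e-05). The Itpr1 peak at chr6:108426630-108427269 was at 9.751 and 9.709 CPM in fasted and 51.63 and 36.19 CPM in fed nuclei (-2.17, SE 0.24, FDR 1.83e-05). Neither pair overlapped. Cacna1e had 18 of 63 peaks higher and 2 lower, Cacna1d 12 of 44 higher and 4 lower, and Trpm3 10 of 30 higher and 2 lower.

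Peaks of the genes whose RNA moved on fasting went both ways. Cacna1s, whose RNA rose, had 1 peak higher and 3 lower of 8. A start-site peak near its 3′ end, chr1:136115934-136116576, was at 9.05 and 6.971 CPM fasted against 13.53 and 14.85 CPM fed (-0.83, SE 0.298, FDR 0.0451), and the peak nearest the gene's 5′ start, chr1:136050973-136051760, was not called (-0.12, FDR 0.738). Trpc7, whose RNA fell, had a peak at chr13:56859070-56859681 with 21.92 and 25.52 CPM fasted against 2.358 and 5.695 CPM fed (2.49, FDR 4.2e-05). Trpm2 had peaks called at chr10:77939452-77939867 (2.12) and chr10:77909344-77909873 (1.19). Another called peak of Trpm2, at an internal start site, was chr10:77932718-77932978 (-1.77, FDR 0.0438). It had 0.5736 and 0.6846 CPM fasted against 3.351 and 1.153 CPM fed. Cacng5 had peaks at chr11:107878444-107879139 (1.86, FDR 0.00205) and chr11:107898555-107898975 (1.19) called higher, and its start-site peak was at -0.32 (FDR 0.42). In Trpc6 the peak at chr9:8603698-8604829 was lower on fasting by 1.25 (FDR 0.00154), and the start-site peak at -0.30 was not called. Both start-site peaks of Hcn3 and both peaks of Trpv6 were not called.

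**Figure D5:**
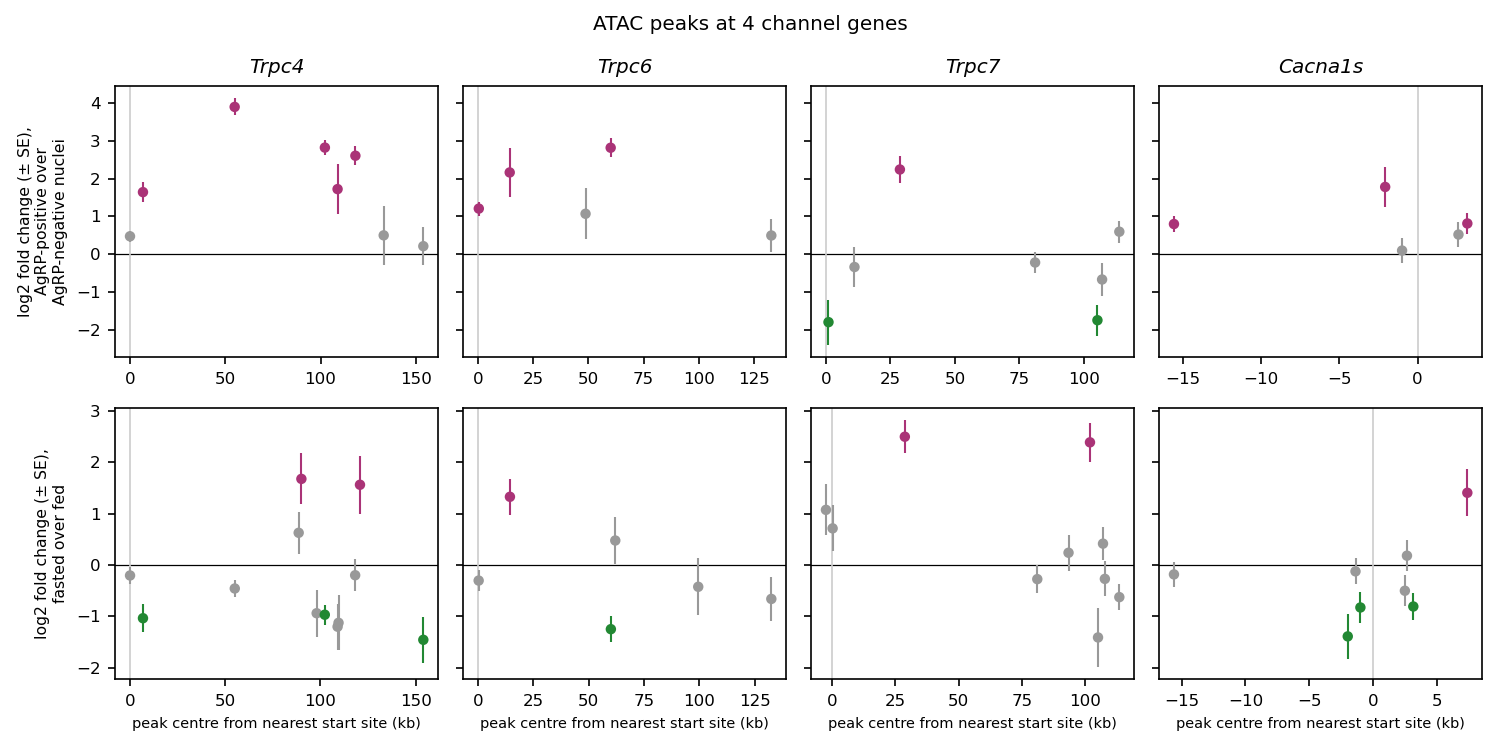
Log2 fold change with its standard error of each ATAC peak of Trpc4, Trpc6, Trpc7 and Cacna1s against the distance in kb of its centre from the nearest start site, for AgRP-positive against AgRP-negative nuclei (upper row) and fasted against fed (lower row). Called peaks are in magenta (higher) or green (lower), and the Trpc4 peak at 3.89 is the highest.

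After leptin, against fasting, 4 member peaks (0.513%) were called higher and 3 (0.385%) lower, where 1.44% and 0.306% of all peaks were. Trpm1, a channel of retinal bipolar cells and melanocytes, had a start-site peak at chr7:64244369-64244991, an internal start site over an exon of the gene. This peak was at 19.44 and 16.74 CPM in leptin and 3.314 and 6.411 CPM in fasted nuclei (1.89, SE 0.337, FDR 0.00674). It was the only one of 113 member start-site peaks called higher, where 0.411% of all start-site peaks were, and 0 were lower, against 0.110%. The Ryr2 peak at chr13:11652202-11653018 was at 2.152 and 0.781 CPM against 10.83 and 5.975 CPM (-2.54, FDR 0.0139). Peaks of Itpr2 (3.61, FDR 0.00839), Cacnb4 (1.17, FDR 0.012) and Cacna1a (1.11, FDR 0.0418) were higher, and peaks of Cacna1e (-3.46, FDR 0.0153) and Trpc1 (-2.04, FDR 0.0378) lower. None of the 7 was called without fasted library 1, leptin library 1 or leptin library 2, and the peaks of Trpv6 and of Cacng5 were not among them.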

How the data were processed

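RNA libraries of AgRP and POMC neurons and ATAC libraries of AgRP neurons were grouped by their titles. Per the submitters' notes and the study's methods, the authors aligned reads to mm10 (HISAT2, Bowtie2), counted RNA reads with featureCounts on an annotation changed to reduce overlapping transcripts, and called peaks with MACS2; versions are not given in the sources used here. The library kit, Nextera XT, does not keep strand. The deposited tables used hold raw counts per gene and per peak. The authors' log2 CPM tables and CUT&RUN lists were not used here.

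Genes and peaks with mean CPM over 1 were tested with edgeR 4.0.16 (R 4.3.3, TMM, quasi-likelihood F test, Benjamini-Hochberg over all genes or peaks of a fit) and called at FDR under 0.05 and a log2 fold change beyond 0.5. AgRP RNA libraries entered 1 fit, POMC libraries another, and all 17 a joint fit of 6 groups. Standard errors are the log2 fold change over the root of F. Lengths are those of the deposited table, in place of the annotation lengths planned. Alternatives were DESeq2 1.42.0, RLE and library size scaling, no filter, the replicate number as a block and leaving out each library; leaving out libraries that stood apart and summing by number were chosen after seeing the data. Sequences were read with Python 3.11.15, and the scripts were tested on simulated data.

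Deviations from the group mean correlated at 0.566 to 0.838 between same-numbered AgRP RNA libraries (10 pairs). Between others (30 pairs) they correlated at -0.672 to 0.673, so numbers were taken to pair samples. The 6 same-numbered POMC pairs gave 0.759 to 0.795 and the 6 other POMC pairs -0.795 to -0.759. With 2 libraries per state the deviations mirror each other by construction, so these POMC pairs are not separate values. No libraries held identical counts. Nothing says that libraries are more than separate pools, so p-values measure the spread between pools. AgRP-positive and AgRP-negative nuclei came from shared pools, which the fit without a block did not use. In the joint fit of AgRP against POMC, same-numbered libraries were counted as independent, so its p-values do not allow for libraries that deviate together.

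Members and gene lists were chosen with earlier results of these data known. Genes were named when called in an RNA contrast or gained with the block, first of their class by level, or among the 3 largest changes without overlap; Trpv6 was named for its place in the study. Peaks were named by lowest FDR or at start sites of named genes, and partner genes when called. The other peaks and genes given were chosen after their values were seen. Some members count in the totals but are not reported or plotted here.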

Additional observations from a re-analysis of the deposited data

Results flagged for a closer look

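In the groups of 4 AgRP libraries, 68 sets of values were screened for a library far from the other 3, and 7 were found, where chance gives about 1 in 20. Of the 7, 6 lay in libraries numbered 4. Cacng7 was at 214.8 CPM in fasted library 4, with the next at 54.77 CPM, and at 198.2 CPM in leptin library 4, with the next at 62.25 CPM. Trpm3 was at 267.5 CPM in fasted library 4 (next 66.46 CPM) and 265 CPM in leptin library 4 (next 86.47 CPM). Cacna1e was at 651.6 CPM in fasted library 4 (next 375.9 CPM) and 567.8 CPM in leptin library 4 (next 368.6 CPM). The seventh was Scn7a at 16.86 CPM in leptin library 1, with the next at 13.9 CPM.

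The fasting change differed between AgRP and POMC neurons for Cacna1s, by 0.999 on the log2 scale, and for Trpm2, by -0.603, in the interaction test with the replicate number as a block. Neither passed without the block, and POMC neurons had 2 libraries per state.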

How the results depend on the processing

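Over the settings tried, 119 alternative totals of called members or peaks stayed within 1.5 times of the reported one, or at 0 where that was 0, and 29 did not. The reported total was 0 for both POMC comparisons and both interactions, so many of the 119 are totals that stayed at 0. Among the named genes 2017 values stayed called or stayed not called, 33 lost the call, 25 gained one, and no called value changed sign. For values called in neither fit the direction was not compared. For leptin against fasting in AgRP RNA the total of 1 became 0 with library size scaling, 2 with no filter, 2 with DESeq2, 3 with the replicate number as a block and 3 without the libraries numbered 4. For leptin against fed the total of 4 became 7 with the block. For AgRP against POMC the 14 became 4 with fed libraries alone and 22 without the libraries that stood apart. The fasting interaction went from 0 to 2 with the block. A block within cell type could not be fitted for AgRP against POMC averaged over states, because number and cell type are nested, and in POMC RNA alone it gave 0 members.

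With each library left out in turn, the totals ran from 4 to 5 for fasting, 0 to 2 for leptin against fasting (0 without fasted library 1, 2 or 3 or leptin library 1, and 2 without fasted library 4), 3 to 5 for leptin against fed, 0 to 0 for both POMC comparisons and both interactions, and 13 to 19 for AgRP against POMC. Those of peaks ran from 130 (without AgRP-negative library 1) to 155 for sorted nuclei, 140 (without either fasted library; 146 without fed library 1) to 217 for fasting and 0 to 6 for leptin. Peak totals of 196, 223 and 7 became 464, 492 and 18 with peaks within 200 kb of a start site, and 20, 11 and 1 with only those within 1 kb. The leptin total of 7 peaks became 12 with no filter and 21 with the replicate number as a block (11 higher and 10 lower, from 4 and 3). Same-numbered ATAC libraries of different states correlated at -0.006 to 0.18, and nothing else shows that their numbers pair samples. Those of sorted nuclei correlated at 0.105. The paper states that both sorted populations came from shared pools, but not that equal numbers mark 1 pool. With the number as a block, 129 member peaks were called higher and 77 lower in sorted nuclei, from 126 and 70. Where a total moved, the cause was not tested, other than fewer libraries or fewer peaks. POMC and ATAC groups had 2 libraries each, and genes near 1 CPM such as Trpv6 and Scn11a have few counts.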

Other observations

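In POMC neurons, Cacng7 had the highest mean level per length at 138 ± 85.7 CPM per kb (SD, n = 6), with a spread set by the libraries numbered 2. Scn2b followed at 77.9 ± 3.90, and then, among others, Cacng4 at 52.3, Scn2a1 at 48.3, Cacna1e at 43.7, Cacna2d1 at 42.2 and Hcn2 at 39.2 CPM per kb. The summed IP3 receptor level in POMC libraries was 25.6 CPM per kb fed, 35.7 fasted and 31.1 after leptin, against 22.0, 23.9 and 22.9 in AgRP libraries, and these sums were not tested.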
